A study of Homo sapiens with 8 samples.

Results

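Histone genes of BT-549 cells were examined as 2 classes, the clustered genes and the variant genes, by gene symbol in the count lists. Symbols beginning with HIST1H, HIST2H, HIST3H or HIST4H were taken as clustered (72 genes), and symbols beginning with H1F, H2AF or H3F as variant (16 genes), which gave 88 of the 23228 genes listed. BT-549 is an established triple negative breast cancer cell line. RNA was sequenced from cells given vehicle (DMSO), 100 nM EC359, 10 µM vorinostat or both drugs together for 24 h, with 2 libraries per group. EC359 is an inhibitor of the leukaemia inhibitory factor receptor LIFR, and vorinostat is an inhibitor of histone deacetylases (HDACi). The cells of all 4 groups were of this 1 line, grown in RPMI with serum. The methods state biological replicates for cell assays in general, but the labels do not say whether the 2 libraries of a group came from separate cultures, so the p-values measure only the spread between these libraries, which may be technical.

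Histones are the proteins around which DNA is wound. Clustered, or replication-dependent, histone genes lie in groups on the chromosomes, are transcribed mostly while DNA is copied, have no introns, and make messenger RNAs that end in a conserved stem-loop in place of a poly(A) tail. The stem-loop is bound by the protein SLBP. Some clustered genes can also make polyadenylated messages from a site further downstream. Variant, or replacement, histone genes mostly lie outside such groups and make polyadenylated messages through the whole cell cycle. They encode proteins such as H2A.Z, macroH2A and H3.3 that replace the standard histones in chromatin. A library preparation that selects poly(A) tails reads only the polyadenylated part of the clustered messages. The labels name a total RNA preparation, the methods name the TruSeq RNA preparation, and neither says whether poly(A) RNA was selected.

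The stem-loop was looked for in the 150 bases after each stop codon, because it separates the classes by sequence alone. The pattern was the histone stem-loop consensus on the coding strand, a paired 6-letter stem around a 4-letter loop. It was found in 67 of 67 clustered genes that could be searched, in 1 of 16 variant genes, and in 5 of 19362 other protein-coding genes (0.0258%). The sequences below are shown for the genes on which the later results turn, with the 6-letter stem arms in capitals and the 4-letter loop in lower case. They were read from GRCh37 (hg19), the build of the count lists.
HIST1H1C: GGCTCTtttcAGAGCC
HIST1H2BK: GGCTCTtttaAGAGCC
HIST1H4H: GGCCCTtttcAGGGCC
HIST2H2AC: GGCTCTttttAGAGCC
H2AFX: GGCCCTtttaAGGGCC
The HIST1H1C stem-loop lies at chr6:26055972-26055987 on the minus strand and the HIST1H2BK one at chr6:27114145-27114160 on the minus strand. The HIST1H4H stem-loop lies at chr6:26285359-26285374 (minus strand), the HIST2H2AC one at chr1:149858941-149858956 (plus strand) and the H2AFX one at chr11:118965608-118965623 (minus strand). The first form was the commonest and stood in 39 clustered genes of the H1, H2A, H2B and H3 families. The stem arms shown for HIST1H4H and H2AFX stood in 14 clustered genes, all of the H4 family, and 9 of these had the loop of HIST1H4H. The distance from the stop codon to the stem-loop ranged from 22 to 67 bases with a median of 35. Each of the 67 placed clustered genes had 1 exon in its canonical transcript, against 9 of 16 variant genes. The variant gene with a stem-loop, H2AFX, encodes H2A.X, the histone that is phosphorylated at DNA breaks, and its annotated transcript runs 1024 bases past the stem-loop.

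Promoters of the clustered genes were compared with other promoters for 3 short motifs in the 250 bases before the RefSeq start (GRCh38.p14), on both strands, with matches allowed to overlap one another. They were TATAAA (the core of the box named for it), CCAAT (the site read by the factor NF-Y) and ATTTGCAT (the octamer known from H2B promoters). TATAAA was present in 66.2% of 65 clustered promoters, against 10.6% of the 35028 other promoters. CCAAT was present in 84.6%, against 31.9%. ATTTGCAT was present in 26 of the 65 clustered promoters, and in 1.56% of the others. It stood in 77.8% of the 18 clustered H2B promoters and in 68.8% of the 16 clustered H2A promoters. The 14 variant promoters in the table held TATAAA in 28.6%, CCAAT in 78.6% and ATTTGCAT in 7.14%. A match is a description of these letters and is not a measured binding site. Promoters are printed for a gene with one of the largest increases under vorinostat (HIST1H2BG), the most abundant clustered gene over all libraries (HIST1H1C), the gene that was lower with the combination than with vorinostat (HIST1H3H), and a gene that shares its promoter with a neighbour (HIST2H2BE). Capitals mark the 3 motifs on either strand.
HIST1H2BG: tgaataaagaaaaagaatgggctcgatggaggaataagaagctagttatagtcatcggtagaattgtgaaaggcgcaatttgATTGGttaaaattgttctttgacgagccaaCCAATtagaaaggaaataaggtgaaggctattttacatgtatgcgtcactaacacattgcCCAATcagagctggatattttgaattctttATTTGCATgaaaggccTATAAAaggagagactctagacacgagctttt
HIST1H1C: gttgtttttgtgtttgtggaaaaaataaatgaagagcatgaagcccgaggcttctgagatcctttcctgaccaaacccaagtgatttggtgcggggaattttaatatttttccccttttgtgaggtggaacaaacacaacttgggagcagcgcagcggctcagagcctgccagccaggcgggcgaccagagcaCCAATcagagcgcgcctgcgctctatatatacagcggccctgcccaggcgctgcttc
HIST1H3H: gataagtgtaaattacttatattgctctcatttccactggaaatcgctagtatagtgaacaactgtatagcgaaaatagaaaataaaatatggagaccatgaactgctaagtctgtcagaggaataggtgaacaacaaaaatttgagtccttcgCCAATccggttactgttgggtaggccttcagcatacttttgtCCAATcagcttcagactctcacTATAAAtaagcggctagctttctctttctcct
HIST2H2BE: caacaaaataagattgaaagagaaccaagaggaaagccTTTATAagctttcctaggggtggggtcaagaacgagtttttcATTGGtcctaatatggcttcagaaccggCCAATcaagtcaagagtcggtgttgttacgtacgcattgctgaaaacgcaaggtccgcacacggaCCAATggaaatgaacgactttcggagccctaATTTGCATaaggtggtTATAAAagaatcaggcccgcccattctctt
In GRCh38.p14 these windows are chr6:26216689-26216938 (minus strand), chr6:26056471-26056720 (minus strand), chr6:27809801-27810050 (plus strand) and chr1:149886683-149886932 (minus strand). HIST1H2BG and HIST2H2BE held all 3 motifs, HIST1H3H held TATAAA and CCAAT, and HIST1H1C held CCAAT alone. Among clustered genes called higher under vorinostat (below), CCAAT stood in 19 of 20 promoters and ATTTGCAT in 10 of 20. Among those tested and not called, CCAAT stood in 11 of 12 promoters and ATTTGCAT in 6 of 12.

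The libraries held 19069450 to 24759041 counts on genes. Reads on genes with near-identical copies are hard to assign, and for each member the share of its 50-base windows that occur elsewhere in the genome was computed. Of the 72 clustered genes, 14 were listed at 0 in all libraries, and 6 of these had at least 90% of their windows copied elsewhere. Of the 16 variant genes, 6 were listed at 0, and 4 of these had such copies, among them H3F3A with 93.0% copied windows, so that H3.3 was read here only from H3F3B. A further 24 clustered genes and 1 variant gene, H2AFY2, had too few counts to test, at most 21 and 5 in any library. H1FX, H2AFZ and H2AFY each overlap an annotated gene on the opposite strand, whose reads cannot be told apart where strand is not known. The same holds for clustered genes, among them HIST1H4H, HIST1H2BC and HIST1H3D. Others overlap an annotated gene on their own strand, among them HIST1H2AC, HIST1H2BD, HIST1H1E and HIST1H2AE, where strand would not separate the reads. The replication-dependent gene HIST1H4C had 0 to 9 counts per library. That left 34 clustered and 9 variant genes tested among 13694 genes. The 9 variant genes had at least 10 counts in both vehicle libraries, but only 15 of the 34 clustered genes did. The other 19 reached 10 counts in both libraries of a group that received vorinostat, and 1 of them, HIST1H2AM, did so with EC359 too. Passing the filter in that way favours genes that are high with vorinostat, so the counts against vehicle or EC359 are given again for the 15.

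Line markers were checked in the same libraries. PGR was at 0 to 0.0511 CPM (the count relative to the library's gene total, scaled by the trimmed mean of M values, TMM) and ESR1 at 0 to 1.02 CPM. The mesenchymal gene VIM was at 2056 to 9442 CPM and FN1 at 1879 to 4588 CPM. ERBB2 was at 96.1 and 102 CPM in vehicle and at 12.0 to 15.8 CPM in the 4 libraries with vorinostat, and the epithelial genes CDH1 and EPCAM stayed at or below 4.27 CPM, with KRT8 at or below 9.67 CPM. In bulk RNA, fewer cells of a kind and less RNA per cell cannot be told apart.

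Summed over its members, the clustered class was about 6-fold higher with vorinostat and the variant class about 2-fold higher. The 72 clustered genes gave 82.4 and 75.9 CPM in vehicle, 49.2 and 54.2 with EC359, 497.9 and 488.9 under vorinostat and 432 and 422 in the combination. No library of one group overlapped another group. The group means were 79.1 ± 4.61, 51.7 ± 3.55, 493 ± 6.36 and 427 ± 7.46 CPM (SD, n = 2), which were 0.65, 6.24 and 5.40 times the vehicle mean. The 16 variant genes summed to 2005 ± 108, 1864 ± 108, 3893 ± 50.7 and 4371 ± 28.6 CPM (SD, n = 2), or 0.93, 1.94 and 2.18 times vehicle. The vehicle and EC359 libraries overlapped in the variant sum, and the 2 vorinostat-containing groups lay apart from them and from each other. Clustered genes made up 0.00481% to 0.0508% of the counts on genes, and variants 0.175% to 0.424%.

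**Figure D1:**
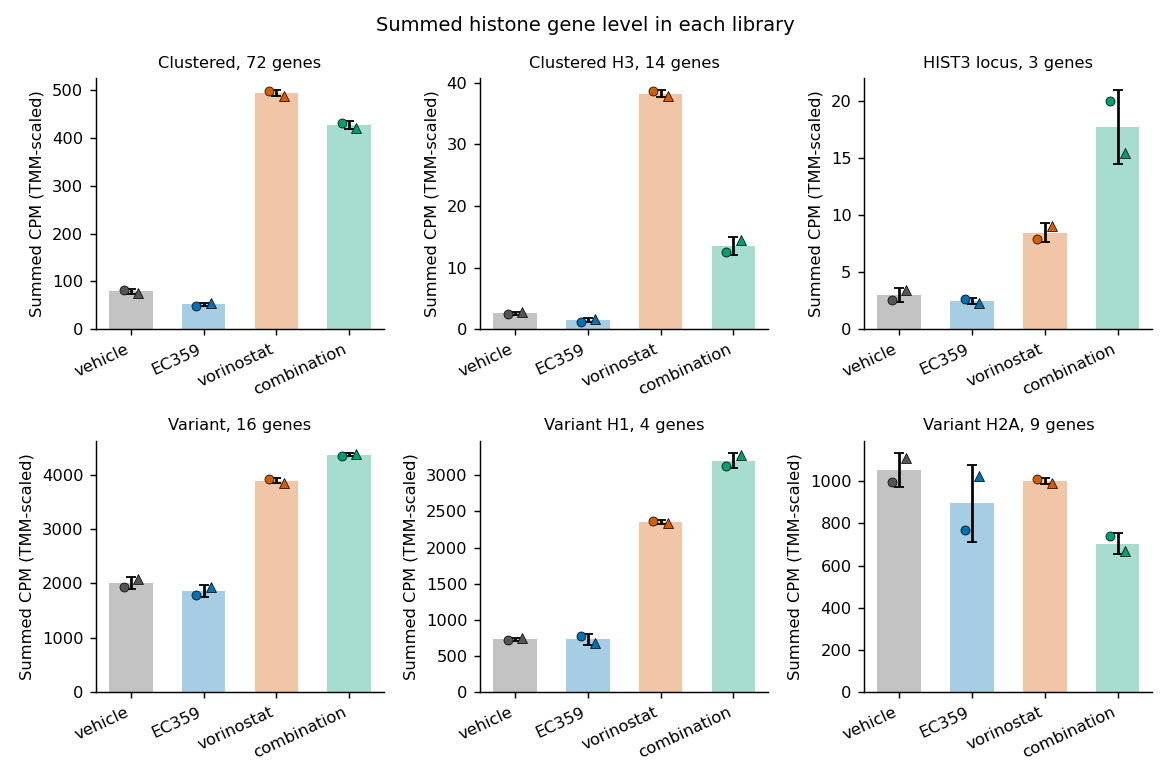
Summed level (CPM, TMM-scaled, linear axis from 0) of the clustered class, the clustered H3 genes, the HIST3 locus, the variant class, the variant H1 genes and the variant H2A genes in the 4 groups. Bars are means, error bars the SD of 2 libraries, circles library 1 and triangles library 2; clustered H3 was at 38.3 CPM with vorinostat and 13.5 with the combination, and the HIST3 locus at 8.46 and 17.7.

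The first comparison asked what the HDAC inhibitor alone did to the histone genes. Of 34 clustered genes tested, 22 were called higher with vorinostat than with vehicle and none lower, where a call needed an adjusted p under 0.01 and a log2 fold change beyond 1 in the quasi-likelihood test of edgeR, adjusted after Benjamini and Hochberg over all tested genes. The 22 include HIST2H2BC, taken as a clustered H2B gene by its symbol and annotated as a pseudogene. Among all tested genes 16.8% were called higher and 13.3% lower. At an unadjusted p under 0.05 the clustered genes counted 27 higher and 0 lower, and DESeq2 called 20 higher and 0 lower. Their median log2 fold change was 2.57, against 0.03 for all tested genes. That median includes the 19 genes that did not reach 10 counts in both vehicle libraries. The test was repeated on genes with at least 10 counts in both vehicle libraries. Of the 15 clustered genes among them, 12 were called higher and 0 lower, with a median of 2.50. The shares and medians of all tested genes, here and below, are from the main filter and not from this one. Among 9 variant genes, 4 were called higher and 2 lower, with a median of 0.91. By family, the clustered genes called higher were 2 of 3 H1, 6 of 8 H2A, 8 of 14 H2B, 5 of 6 H3 and 1 of 3 H4 genes. These counts include genes that passed the filter only through a group with vorinostat, so the families cannot be ranked by them. Among the 15 genes, 2 were H3 genes and 2 of these 2 were called higher.

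**Figure D2:**
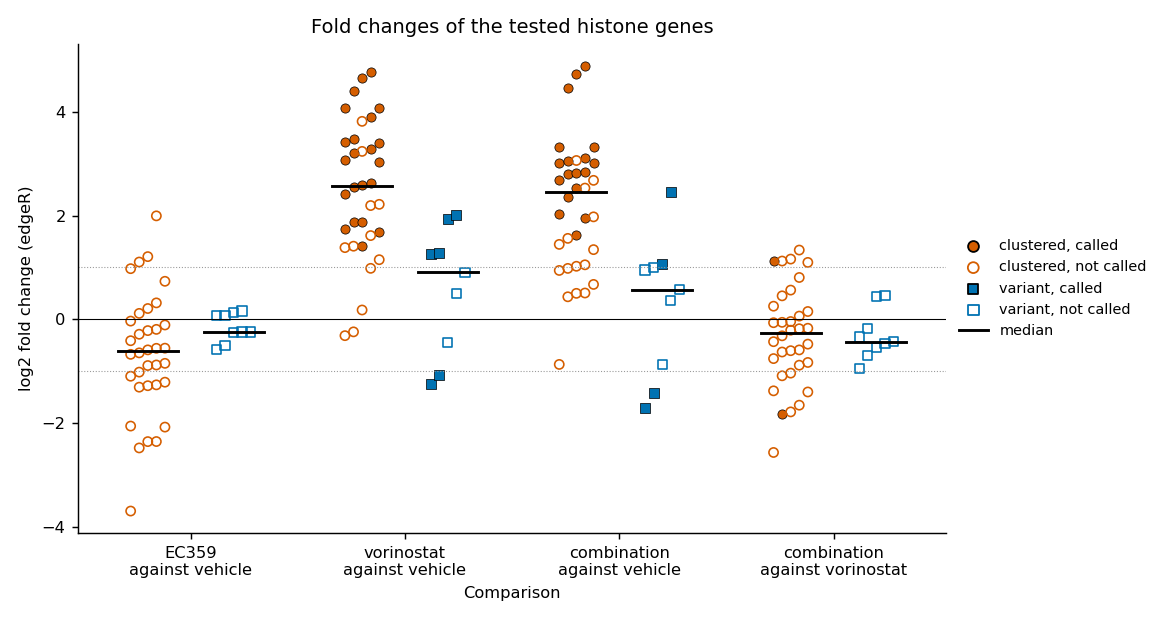
log2 fold change (edgeR) of the 34 clustered (circles) and 9 variant (squares) genes tested, in 4 comparisons; filled symbols were called, lines are medians and dotted lines mark a log2 fold change of 1 and -1. Under vorinostat the clustered median was 2.57 and the variant median 0.91, and with EC359 alone no symbol is filled.

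The 5 most abundant clustered genes carried most of the counts. They are also the only 5 genes on the list used here of clustered genes known to make polyadenylated messages. That list was chosen with earlier results of these data known, so the match is not an independent finding. These were HIST1H1C, which encodes linker histone H1.2, HIST1H2BK, HIST1H2BD and HIST2H2BE, which encode H2B, and HIST1H2AC, which encodes H2A. They held 75.7% to 78.8% of all clustered counts in every library. HIST1H2BD and HIST1H2AC each overlap an annotated gene on the same strand, so their counts may hold reads of it. Their sum was 61.8 ± 2.88 CPM in vehicle, 39.1 ± 2.62 with EC359, 386 ± 8.44 under vorinostat and 331 ± 7.72 under both drugs (SD, n = 2). The ratio to vehicle under vorinostat was 6.24 for these 5 genes and 6.24 for the other 67, so the list and the rest were multiplied alike in these sums.

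HIST1H1C (chr6:26055968-26056698, GRCh37, minus strand) was at 16.2 and 12.2 CPM in vehicle, 7.92 and 11.2 with EC359, 156 and 150.1 under vorinostat and 132 and 114 in the combination. Both vorinostat-containing groups lay above all other libraries. It rose by 3.42 ± 0.18 on the log2 scale under vorinostat (SE; edgeR adjusted p = 8.13e-07). HIST1H2BD (chr6:26158350-26158835, plus strand) stood at 8.40 and 7.33 CPM in vehicle, 5.65 and 4.36 with EC359, 87.9 and 87.4 with vorinostat, and 67.0 and 63.3 with the combination. None of its groups overlapped. Its log2 fold change under vorinostat was 3.48 ± 0.14 (SE; edgeR adjusted p = 2.45e-07). HIST2H2BE (chr1:149856009-149858232, minus strand) was at 1.84 and 2.71 CPM in vehicle, 1.81 and 1.93 with EC359, 21.5 and 20.2 with vorinostat, and 17.4 and 19.5 with the combination. Its vehicle and EC359 libraries overlapped and its vorinostat-containing libraries lay far above them. It rose by 3.19 ± 0.20 under vorinostat (SE; edgeR adjusted p = 1.75e-06).

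HIST1H2BK (chr6:27114140-27114634, minus strand) and HIST1H2AC (chr6:26124400-26124918, plus strand) had the smaller increases of the 5. HIST1H2BK was at 27.8 and 28.7 CPM in vehicle, 16.7 and 18.8 with EC359, 93.1 and 87.5 with vorinostat, and 85.0 and 88.0 with the combination. Its fold change under vorinostat was 1.68 ± 0.10 on the log2 scale (SE; edgeR adjusted p = 1.58e-06), and 57.2% of its windows occur elsewhere, so its counts are uncertain. HIST1H2AC was at 9.63 and 8.83 CPM in vehicle, 5.24 and 4.72 with EC359, 33.3 and 34.4 with vorinostat, and 35.1 and 40.1 with the combination. In both genes the EC359 libraries lay below vehicle and the vorinostat-containing libraries above it. The log2 fold change of HIST1H2AC under vorinostat was 1.87 ± 0.14 (SE; edgeR adjusted p = 3.81e-06).

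The largest fold changes belonged to clustered genes of low level in vehicle. HIST1H3H, which encodes H3 (chr6:27777829-27778314, plus strand), was at 0.755 and 1.40 CPM in vehicle and 27.4 and 27.0 with vorinostat, a log2 fold change of 4.65 ± 0.43 (SE; edgeR adjusted p = 1.70e-05). HIST1H2BG, an H2B gene, was at 0.519 and 0.420 CPM in vehicle and 8.85 and 7.10 with vorinostat, a log2 fold change of 4.07 ± 0.26 (adjusted p = 1.81e-06, edgeR). HIST1H4H, an H4 gene (chr6:26285354-26285762, minus strand), was at 0.236 and 0.327 CPM in vehicle and 4.89 and 7.14 with vorinostat, a log2 fold change of 4.39 ± 0.52 (adjusted p = 7.52e-05, edgeR). In these 3 genes every vorinostat library lay above every vehicle library, which the rule for naming them required. HIST1H4H overlaps annotated genes on the opposite strand, whose reads cannot be told apart from its own. HIST1H2BF had the largest fitted value, 4.76 ± 0.62, from 0.0472 and 0.140 CPM in vehicle to 2.16 and 3.23 CPM with vorinostat. Its vehicle level rests on 4 counts, so the size of that change is imprecise.

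**Figure D3:**
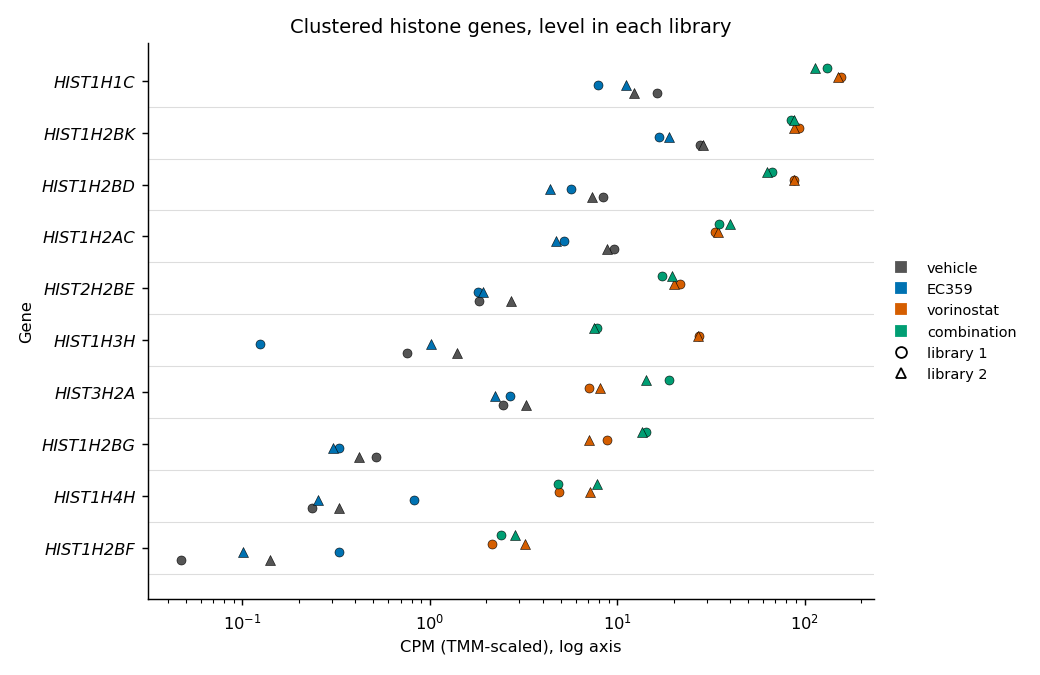
Level (CPM, TMM-scaled, log axis) of the 10 clustered genes described, ordered by mean level, in each of the 8 libraries; colours are groups, circles library 1 and triangles library 2. In each gene the 4 libraries with vorinostat lie to the right of the vehicle and EC359 libraries, and HIST1H3H and HIST3H2A are the genes in which the combination was called apart from vorinostat.

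Clustered genes with and without a longer annotated transcript were counted apart. Of 67 clustered genes with a stem-loop, 18 have a GENCODE transcript that runs more than 100 bases past it, and 11 of these were tested and 8 called higher under vorinostat, with a median log2 fold change of 3.06. Of the other 49, 20 were tested and 11 called higher, with a median of 2.20, beside 16.8% of all tested genes called higher. Restricted to genes with at least 10 counts in both vehicle libraries, 6 of 7 with such a transcript and 6 of 8 without it were called higher, with medians of 3.14 and 2.16. The difference between these sets was not tested. HIST1H1C and HIST1H2BK, both abundant here, have no such transcript in the annotation and end within 5 bases of the stem-loop. Which form of a message was read cannot be told from counts per gene.

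Clustered H2A and H2B genes often stand head to head and share a promoter, and the partners of such pairs were compared. In 10 pairs the starts were 194 to 251 bases apart. Both partners were tested in 6 pairs. In HIST2H2AC and HIST2H2BE, whose starts are 236 bases apart on chromosome 1 and whose promoter windows overlap on opposite strands, HIST2H2BE rose by 3.19 ± 0.20 (SE). HIST2H2AC had 26 counts over both vehicle libraries and 22 with vorinostat, a log2 fold change of -0.24 ± 0.50 (edgeR adjusted p = 0.692). HIST1H2AG was called (3.03 ± 0.29) and its partner HIST1H2BJ was not (0.98 ± 0.48; edgeR adjusted p = 0.0991). HIST1H2AI was called (3.28 ± 0.44, with 63.5% of its windows copied elsewhere) and its partner HIST1H2BL was not, at 17 counts in vehicle and 14 with vorinostat. Both partners were called in HIST1H2AC with HIST1H2BC (1.87 and 3.06) and in HIST3H2A with HIST3H2BB (1.41 and 2.56), although HIST3H2BB had only 2 and 4 counts in vehicle. In the sixth pair HIST1H2AM was called (1.88) and HIST1H2BO was not (1.38). HIST1H2AI, HIST1H2BL, HIST1H2AM, HIST1H2BO and HIST3H2BB did not reach 10 counts in both vehicle libraries. The filter admitted them through a group with vorinostat, which favours genes high there. The difference between partners was not tested. HIST2H2BE has an annotated transcript that runs 1729 bases past its stem-loop, while that of HIST2H2AC ends 5 bases past it, and the part of this in the difference was not tested.

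**Figure D4:**
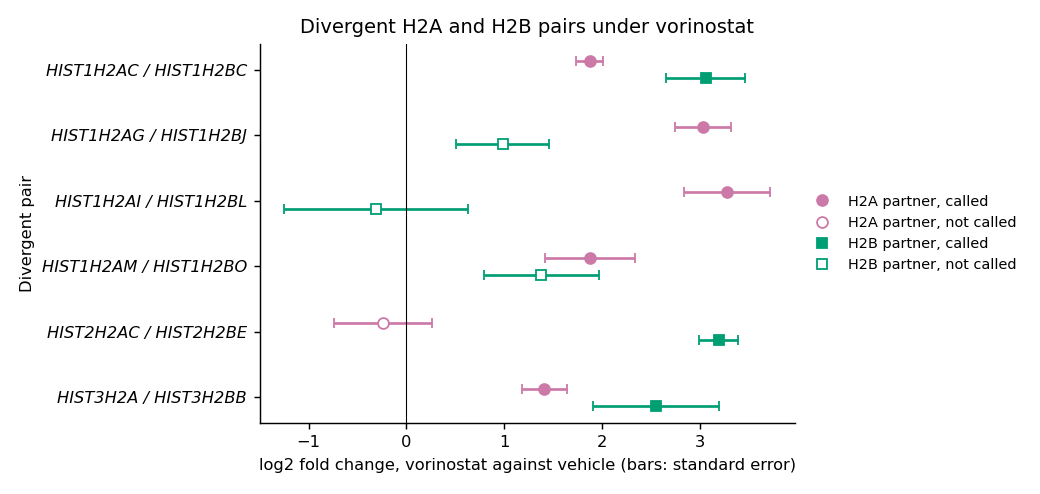
log2 fold change of vorinostat against vehicle (edgeR, bars show the SE) for the 6 head-to-head pairs with both partners tested; circles are H2A and squares H2B genes, filled where called. HIST2H2AC stands at -0.24 and its partner HIST2H2BE at 3.19.

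The variant genes moved in both directions. H1F0 encodes the replacement linker histone H1.0, which is known to accumulate in cells that stop dividing (chr22:38201236-38203439, plus strand). It was at 517 and 501 CPM in vehicle, 644 and 495 with EC359, 2040.0 and 2047 under vorinostat and 2709 and 2843 in the combination. The 4 libraries with vorinostat lay far above the rest, and the combination above vorinostat. Its log2 fold change under vorinostat was 2.01 ± 0.12 (SE; edgeR adjusted p = 1.34e-06). H1F0 held 24.1% to 36.04% of variant counts without vorinostat, 51.9% and 53.1% with it, and 62.3% and 64.7% with the combination.

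H3F3B, which encodes H3.3 (chr17:73772515-73775860, minus strand), was at 212 and 215 CPM in vehicle, 241 and 228 with EC359, 519 and 499 under vorinostat and 467 and 433 in the combination. Its vorinostat-containing libraries lay above the rest, and its log2 fold change was 1.25 ± 0.08 (SE; edgeR adjusted p = 2.47e-06). H2AFJ, an H2A variant gene (chr12:14927339-14927958, plus strand), was at 52.1 and 54.2 CPM in vehicle, 45.2 and 43.98 with EC359, 126 and 129.9 with vorinostat, and 73.5 and 84.3 with the combination. It rose by 1.27 ± 0.10 under vorinostat (SE; edgeR adjusted p = 6.07e-06). H3F3C, a processed copy of H3F3B that encodes H3.5, was called at 1.94 ± 0.46, from 4.77 and 8.69 CPM to 24.8 and 26.7 CPM. It shares 18.5% of its windows with other places, and its call was lost when any 1 vehicle, vorinostat or combination library was left out (log2 fold change 1.57 to 2.43, largest adjusted p = 0.0508, edgeR).

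H2AFZ and H2AFY were the variant genes called lower. H2AFZ encodes H2A.Z and had the highest vehicle level per length of the histone genes tested, 419 CPM per kb of transcript, followed by H1F0 at 231 and H1FX at 146. H2AFZ was at 313 and 413 CPM in vehicle, 201 and 413 with EC359, 156 and 152 with vorinostat, and 125 and 97.4 with the combination. The EC359 libraries spanned the vehicle values, and the vorinostat-containing libraries lay below all others. Its log2 fold change under vorinostat was -1.24 ± 0.29 (SE; edgeR adjusted p = 0.00455). That call was lost without vehicle library 2, without either vorinostat library or without either combination library (log2 fold change -1.42 to -1.02, largest adjusted p = 0.0371, edgeR). H2AFV, which encodes the other H2A.Z protein, was at 263 and 265 CPM in vehicle and 501 and 488 with vorinostat, 0.91 ± 0.15 (SE; edgeR adjusted p = 5.76e-04), under the fold threshold and opposite in sign to H2AFZ.

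H2AFY, which encodes macroH2A1 (chr5:134670071-134734921, minus strand), was at 182 and 193 CPM in vehicle, 209 and 185 with EC359, 88.0 and 89.7 with vorinostat, and 70.2 and 70.3 with the combination. It was lower in every library with vorinostat than in any without, by -1.07 ± 0.09 (SE; edgeR adjusted p = 1.15e-05). H2AFX was at 188 and 186 CPM in vehicle, 122 and 127 with EC359, 142 and 134 with vorinostat, and 93.7 and 112 with the combination, with no overlap between vehicle and any treated group. Its log2 fold changes were -0.58 ± 0.10 with EC359, -0.44 ± 0.10 with vorinostat and -0.86 ± 0.10 with both (edgeR adjusted p = 0.00507, 0.00439 and 6.66e-05), each inside the fold threshold. Summed over 9 genes, variant H2A was at 1054 ± 80.7 CPM in vehicle, 1003 ± 14.4 with vorinostat and 705 ± 51.2 with the combination (SD, n = 2).

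**Figure D5:**
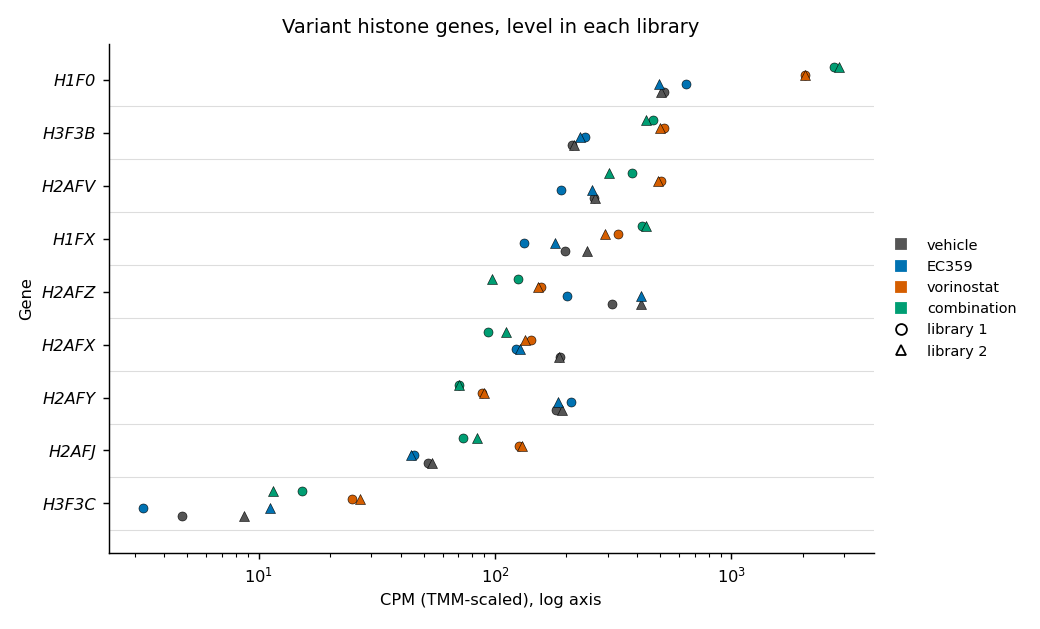
Level (CPM, TMM-scaled, log axis) of the 9 variant genes tested, ordered by mean level, in each of the 8 libraries; colours are groups, circles library 1 and triangles library 2. H1F0 and H3F3B lie to the right with vorinostat, H2AFZ and H2AFY to the left, and the EC359 libraries of H2AFZ lie at 201 and 413 CPM.

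The linker histones were read from both classes. In the clustered class, HIST1H1E, which encodes H1.4, was at 1.89 and 0.747 CPM in vehicle, 4.32 and 4.51 with vorinostat, and 10.5 and 8.43 with the combination. It was called higher in both (1.74 ± 0.36 and 2.84 ± 0.35, edgeR adjusted p = 0.00226 and 8.43e-05). H1FX, a variant linker gene, was at 197 and 245 CPM in vehicle, 133 and 180 with EC359, 332 and 291 under vorinostat and 419 and 436 in the combination. Its log2 fold change was 0.95 ± 0.16 with the combination (edgeR adjusted p = 5.22e-04), just inside the fold threshold, and it was called without vehicle library 2 (1.12). The sperm and egg linker histones and other germline histones were not tested: 7 of 9 were listed at 0, and HIST1H1T had 0 counts in vehicle and EC359, 4 and 2 with vorinostat, and 8 and 9 with the combination. HIST1H1T lies inside a long annotated transcript of HIST1H2BC on the same strand.

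EC359 alone gave lower clustered levels in sum, but no histone gene passed both thresholds. No clustered and no variant gene was called in edgeR, against 1.94% of all tested genes called higher and 1.72% lower, and DESeq2 also called 0 in both classes. At an unadjusted p under 0.05, 1 clustered gene was higher and 8 were lower, and 0 variant genes were higher and 3 lower. The shares of all tested genes at that p, or with a fold change below 0, are not given here, so these counts show no trend of the class. Of 34 clustered genes, 26 had a fold change below 0, with a median of -0.61 against -0.02 for all tested genes, and -0.59 without HIST1H3G, which was at 0 in both EC359 libraries. Among the 15 genes with at least 10 counts in both vehicle libraries, 0 were called higher and 0 lower, with a median of -0.63. That filter favours genes that are high in vehicle. HIST1H2AC (-0.89 ± 0.15) and HIST1H2BK (-0.67 ± 0.11) had edgeR adjusted p = 0.00364 and 0.00280 and missed only the fold threshold. The other 3 genes of the polyadenylated list were at -0.59 (HIST1H1C), -0.64 (HIST1H2BD) and -0.28 (HIST2H2BE), with adjusted p = 0.0656, 0.0205 and 0.446. The EC359 libraries differed between themselves in HIST1H3H, at 0.124 and 1.01 CPM. Without EC359 library 2, HIST1H3H (log2 fold change -3.07) and HIST1H2AE were called lower.

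With both drugs, 18 of 34 clustered genes were called higher than in vehicle and none lower, with a median log2 fold change of 2.44 against 0.07 for all tested genes, of which 19.5% were called higher and 15.3% lower. At an unadjusted p under 0.05, 23 were higher and 0 lower, and DESeq2 called 18 higher and 0 lower. Of the 15 genes with at least 10 counts in both vehicle libraries, 12 were called higher, with a median of 2.61. The 5 genes of the polyadenylated list were all called, from 1.62 ± 0.10 for HIST1H2BK to 3.11 ± 0.18 for HIST1H1C. HIST1H2BG had the largest value, 4.87 ± 0.25 (SE; edgeR adjusted p = 4.34e-07), at 14.2 and 13.6 CPM. Of the 9 variant genes, H1F0 (2.45 ± 0.12) and H3F3B (1.07 ± 0.08) were called higher and H2AFY (-1.41 ± 0.09) and H2AFZ (-1.70 ± 0.29) lower, with edgeR adjusted p = 3.40e-07, 4.37e-06, 1.81e-06 and 6.96e-04. The call of H3F3B was lost with scaling to total counts (0.99), that of H2AFZ was lost without combination library 2 (-1.49), and H2AFX was called lower without that library (-1.04).

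Against EC359 alone, the combination gave 19 of 34 clustered genes higher and 0 lower (edgeR; 27 and 0 at an unadjusted p under 0.05, 20 and 0 by DESeq2), with 19.8% of all tested genes higher and 13.9% lower. The median was 3.11, and 2.91 without HIST1H3G. Of the 15 genes with at least 10 counts in both vehicle libraries, 13 were called higher and 0 lower, with a median of 3.37. H1F0 (2.28) and H1FX (1.45) were called higher and H2AFY (-1.49) and H2AFZ (-1.46) lower. This comparison shares its combination libraries with the preceding one. The call of H2AFZ was lost without EC359 library 2 (-0.85) and without either combination library. H3F3C, at 0.92 here, was called without EC359 library 2 (2.04).

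The next comparison asked what EC359 added to vorinostat. Of the clustered genes, 1 was called higher and 1 lower in the combination than with vorinostat alone, against 3.37% and 0.876% of all tested genes. The median was -0.26, against -0.0082 for all tested genes, and 23 of 34 were below 0. The filter leans towards genes high with vorinostat alone. At least 10 counts in both libraries were reached by 31 clustered genes with vorinostat and by 25 with the combination. Among the 15 genes with at least 10 counts in both vehicle libraries, 1 was called higher and 1 lower, with a median of -0.20. No variant gene was called in edgeR or in DESeq2, with 2 higher and 4 lower at an unadjusted p under 0.05. H2AFJ had the smallest variant p, with a log2 fold change of -0.70 ± 0.10 (edgeR adjusted p = 0.00120), inside the fold threshold.

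HIST1H3H was the gene called lower, at 27.4 and 27.0 CPM with vorinostat and 7.78 and 7.56 with the combination, a change of -1.82 ± 0.35 (SE; edgeR adjusted p = 0.00520). The groups were far apart and libraries within a group close. That the groups do not overlap was required by the rule for naming genes. The call was lost in DESeq2 (adjusted p = 0.0567) and without any 1 vehicle, vorinostat or combination library, at -1.86 to -1.81 and adjusted p of up to 0.0568. With the 4 compared libraries alone, the edgeR adjusted p was 3.51e-06. All 6 clustered H3 genes tested were below 0 in this comparison, from -1.82 to -0.59, and 5 of them were not called. That shared sign is partly fixed by the filter, since 4 of the 6 (HIST1H3A, HIST1H3B, HIST1H3G and HIST1H3J) reached 10 counts in both libraries of the vorinostat group alone. Summed over 14 clustered H3 genes, the level was 2.56 ± 0.21 CPM in vehicle, 1.46 ± 0.37 with EC359, 38.3 ± 0.53 under vorinostat and 13.5 ± 1.43 under both drugs (SD, n = 2), and HIST1H3H made up most of it in the groups with vorinostat.

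HIST3H2A, an H2A gene of the small HIST3 locus on chromosome 1 (chr1:228645065-228645574, minus strand), was the gene called higher. It was at 2.45 and 3.27 CPM in vehicle, 2.68 and 2.23 with EC359, 7.10 and 8.12 with vorinostat, and 18.9 and 14.2 with the combination. Each vorinostat library lay above vehicle and each combination library above vorinostat. The rule for naming genes required that the combination and vorinostat libraries not overlap. The change against vorinostat was 1.12 ± 0.21 (SE; edgeR adjusted p = 0.00467), and the call was lost without either vorinostat or either combination library (0.88 to 1.26, adjusted p of up to 0.0634). The 3 genes of the HIST3 locus summed to 8.46 ± 0.84 CPM with vorinostat and 17.7 ± 3.24 with the combination (SD, n = 2), while the 55 genes of the HIST1 locus summed to 461 ± 5.45 and 389 ± 4.88. HIST1H2AG at -1.08 ± 0.25 and HIST1H1E at 1.10 ± 0.31 had edgeR adjusted p = 0.0121 and 0.0276 and were called only under some alternatives.

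Whether EC359 changed the response to vorinostat was tested by the interaction, the log2 difference between the effect of vorinostat with EC359 and without it. No histone gene passed an adjusted p of 0.01 in edgeR, against 1.62% of all tested genes higher and 0.482% lower. At an unadjusted p under 0.05, 6 clustered genes were higher and 2 lower, and 1 variant gene was higher and 3 lower, with no share of all tested genes to set beside them. DESeq2 called 1 clustered gene, HIST1H2AC (0.99, adjusted p = 0.00317; edgeR 1.04 ± 0.19, adjusted p = 0.0155), and 1 variant gene, H1FX (0.91, adjusted p = 0.00236; edgeR 0.96 ± 0.22, adjusted p = 0.0353). In edgeR, HIST1H2AC and H1FX were also called when either EC359 library was left out.

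Genes that make, carry and load histones were set beside them, from lists of known factors. Of 11 genes for histone message synthesis and processing, SLBP was at 116 and 127 CPM in vehicle and 135 and 135 with vorinostat (0.16 ± 0.10, edgeR adjusted p = 0.193). NPAT, the coactivator of clustered histone genes, was at 65.0 and 67.8 CPM in vehicle, 83.2 and 86.3 with vorinostat, and 124 and 119 with the combination (0.35 ± 0.09 and 0.87 ± 0.09, edgeR adjusted p = 0.00772 and 2.96e-05), inside the fold threshold. The median of the 11 was 0.09 with vorinostat, where 4 had an adjusted p under 0.01 and all 11 were inside the fold threshold. With the combination HINFP was called higher (1.36) and CPSF2 lower (-1.03), named after their values were seen. Each is 1 of 11, or 9.09% of the list, beside 19.5% of all tested genes called higher and 15.3% called lower.

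Of 23 histone chaperones and importers, 5 were called lower with vorinostat and 6 with the combination, with medians of -0.69 and -0.61. These were 21.7% and 26.1% of the list, beside 13.3% and 15.3% of all tested genes. They included HJURP, the chaperone of the centromeric H3 (-1.44 ± 0.11), the chromatin assembly subunit gene RBBP4 (-1.21 ± 0.12), the importin gene IPO4 (-1.16 ± 0.10) and DNAJC9 (-1.12 ± 0.11) with vorinostat (edgeR adjusted p = 6.67e-06, 2.80e-05, 8.37e-06 and 1.93e-05). The fifth was ANP32E, the chaperone that takes H2A.Z out of chromatin, at -1.10, named after its values were seen. A list of 46 S-phase genes gave 18 called lower with vorinostat and 16 with the combination, with medians of -0.73 and -0.73. These were 39.1% and 34.8% of the list, beside the same 13.3% and 15.3% of all tested genes, and 1 gene, CDC6 (named after its values were seen), was called higher with the combination (1.03). With EC359 alone the S-phase median was 0.04. MCM2, CHAF1B and NASP are on both the chaperone and the S-phase list. The part of these changes in the histone levels was not tested.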

How the data were processed

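RNA-seq counts from 8 libraries of BT-549 cells were used. Per the methods and labels, the authors aligned 50 bp single-end Illumina reads to hg19 with TopHat2 (2.0.8b per the submitters' processing notes) and quantified NCBI RefSeq genes by HTSeq counting; the HTSeq version and strand setting are not given in the sources used here. The deposited values are raw counts per gene symbol, 1 list per library, and the 5 HTSeq summary lines were left out (reads on no gene were 11.0% to 14.2% of uniquely aligned reads). No strand setting being known, a gene and its antisense partner cannot be told apart.

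Members were taken by symbol prefix. The members and the gene lists were chosen with earlier results of these data known. All 13694 genes that passed edgeR's filterByExpr were fitted together (edgeR 4.0.16, R 4.3.3; TMM scaling, quasi-likelihood test, group as the only term, all 8 libraries) and adjusted by Benjamini-Hochberg. Genes were called at an adjusted p below 0.01 with a log2 fold change beyond 1 in either direction (the interaction, adjusted p alone), the thresholds that the study gives with its RNA-seq results. Counts at an unadjusted p under 0.05, and of fold changes below 0, are given without the share of all tested genes and describe the members only. CPM values are scaled by TMM. DESeq2 1.42.0, other scalings, filters and thresholds, a replicate block and leaving out each library were alternatives. Coordinates, stem-loops and copied 50-base windows came from GRCh37 with GENCODE v44lift37 (83 of 88 members placed, under their current symbols), promoters from RefSeq GRCh38.p14 (79 of 88), and the S-phase list from Seurat 5.3.0. Genes were named by rule: every tested variant, the 5 clustered genes of highest mean level, the polyadenylated list, and the leading processing and chaperone genes. Added to these were the clustered genes with the largest called changes, above a minimum mean level and without overlap between the libraries compared. Others are described where a family, pair or threshold turned on them.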

Additional observations from a re-analysis of the deposited data

How the results depend on the processing

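Among 2429 values of 25 named genes in 6 comparisons under the alternatives run, 2379 kept their direction and side of the threshold, 28 lost a call, 22 gained one and 0 called values changed sign. Clustered genes called higher with vorinostat were 12 in place of 22 when at least 10 counts were required in both vehicle libraries, an alternative chosen after seeing the data that tests 15 clustered genes, and variant genes called lower were then 1 in place of 2. Without a fold threshold, EC359 gave 2 clustered and 1 variant call in place of 0, the combination against vehicle gave 4 variants higher in place of 2 (1 with scaling to total counts), against vorinostat 1 variant in place of 0, and against EC359 7 variants in place of 4. Clustered genes called between combination and vorinostat were 4 in place of 2 at an adjusted p under 0.05, with only the 4 libraries compared, and without the EC359 group (chosen after seeing the data). Interaction calls were 1 clustered and 1 variant with DESeq2, and 3 and 1 at an adjusted p under 0.05, in place of 0.

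Leaving out 1 library at a time gave 16 to 25 clustered genes higher with vorinostat, 16 to 19 with the combination, 0 to 2 called with EC359 (2 without EC359 library 2), 0 to 4 between combination and vorinostat, and 0 to 2 interactions. For variants it gave 3 to 4 higher and 1 to 2 lower with vorinostat, and 0 to 3 interactions. The 2 clustered calls between combination and vorinostat fell to 0 without either vorinostat or either combination library, fell to 1 without either vehicle library and rose to 4 without either EC359 library. A lone library is assumed to vary like the other groups. Among all tested genes, 79.4% of calls between combination and vorinostat were higher, and 67.6% with scaling to total counts; for the interaction it was 77.1%, and 62.6% with DESeq2.

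The replicate block, the fit with the replicate number as a term, gave 20 clustered genes higher with vorinostat and 18 with the combination, and left the other counts of calls as they were. Same-numbered libraries did not deviate together in every pair of groups (correlations -0.173 to 0.231, the highest for vehicle with EC359). Whether any of them share a culture or a batch cannot be told from these values. The counts per clustered gene limit what could be seen: 38 of 72 were not tested, so differences in those genes could not be read here. Of the 72, 14 were at 0 in all libraries, and 6 of these had at least 90% of their windows copied elsewhere. The parts of depth, copied sequence and library preparation in this were not tested.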
